A study of Mus musculus with 2 samples.

Results

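Genes of the major histocompatibility complex (MHC) were examined in sorted muscle satellite cells before and after activation. The 8 genes were taken by symbol from 32285 features. They are H2-K1, H2-D1 and B2m of class I, the peptide transporter gene Tap1, and Cd74, H2-Aa, H2-Ab1 and H2-Eb1 of class II. All 8 were present once in both libraries. Satellite cells of the tibialis anterior muscle came from Pax7 CreERT2/+ ;Rosa26 mTmG/+ mice aged 8 weeks. In this strain, Cre recombinase driven by Pax7 acts once tamoxifen is given and switches a red membrane reporter to green in cells that then express Pax7. The QSC library was made from quiescent satellite cells of uninjured muscle. The ASC library was made from activated satellite cells sorted 1.5 days after the muscle was injured by cardiotoxin, which kills fibres and spares most satellite cells. Both groups shared the genotype and came from pooled mice, and each was 1 library, so no value below has a replicate check, no test was run, and group and library cannot be told apart.

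MHC class I molecules show peptides from inside the cell to cytotoxic T cells and are found on nearly every nucleated cell. H2-K1 and H2-D1 encode the heavy chains, B2m encodes the light chain, beta-2-microglobulin, and Tap1 encodes a subunit of the transporter that carries peptides into the endoplasmic reticulum. MHC class II molecules show peptides taken up from outside to helper T cells, and are made mainly by dendritic cells, macrophages and B cells. H2-Aa encodes an alpha chain, H2-Ab1 and H2-Eb1 encode beta chains, and Cd74 encodes the invariant chain that occupies the peptide groove during assembly. In resting muscle, fibres carry little class I, and interferons raise both classes in many cell types.

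Of the 8 genes, 6 lie in the MHC on mouse chromosome 17 (GRCm38, GENCODE M21). H2-K1 spans chr17:33996017-34000347 on the minus strand and H2-D1 spans chr17:35262730-35267499 on the plus strand. Tap1 lies at chr17:34187553-34197225 (plus), H2-Ab1 at chr17:34257689-34269419 (plus), H2-Aa at chr17:34282744-34287823 (minus) and H2-Eb1 at chr17:34305867-34316674 (plus). B2m lies outside the complex, at chr2:122147686-122153083 (plus). Tap1 overlaps Psmb9, B2m overlaps Patl2 and H2-Eb1 overlaps the antisense gene Gm20513, all on the opposite strand. Cd74 overlaps the microRNA gene Mir5107 on the same strand. How reads in these overlaps were assigned was not checked. H2-K1 and H2-D1 are close relatives, but in the last 500 bases of their transcripts, where 3' libraries place most reads, only 0.443% of the 50-base words of H2-K1 also occurred in H2-D1. For H2-D1, 9.53% of such words were shared with 6 unrelated genes.

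The promoters are shown because the class II genes were found together in the same barcodes and because B2m and the heavy chain genes differed in their ratio between the libraries. RefSeq windows (GRCm38.p6) from 250 bases before to 50 after the start were used for 6 of the 8 genes. The Y box, CCAAT on either strand, is an element of class I and class II promoters that binds the factor NF-Y. All 6 genes had it, against 41.1% of the 27025 genes in the table. The interferon-stimulated response element, GAAANNGAAA on either strand, was found with these exact letters in B2m alone, 139 bases before its start, against 3.99% of genes. Near matches were not counted, such as tttcacttct, which the windows of H2-K1 and H2-D1 both hold. The interferon-gamma activated sequence, TTCNNNGAA, which reads the same on both strands, was in none of the 6, against 9.55% of genes. These matches describe letters in a window and not factor binding. The 150 bases before the start of 4 genes follow, 5′ to 3′ on the strand of the gene, with the Y box in capitals and, for B2m, also the longer interferon element.
H2-K1, chr17:34000348-34000497: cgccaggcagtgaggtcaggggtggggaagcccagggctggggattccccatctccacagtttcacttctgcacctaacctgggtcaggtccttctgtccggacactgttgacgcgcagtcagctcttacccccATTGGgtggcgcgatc
B2m, chr2:122147537-122147686: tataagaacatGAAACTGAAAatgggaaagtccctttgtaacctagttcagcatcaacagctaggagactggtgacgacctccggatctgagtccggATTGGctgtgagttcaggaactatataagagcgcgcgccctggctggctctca
H2-Aa, chr17:34287824-34287973: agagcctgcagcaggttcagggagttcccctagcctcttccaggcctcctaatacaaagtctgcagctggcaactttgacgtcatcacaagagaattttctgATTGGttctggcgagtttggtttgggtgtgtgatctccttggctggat
H2-Eb1, chr17:34305717-34305866: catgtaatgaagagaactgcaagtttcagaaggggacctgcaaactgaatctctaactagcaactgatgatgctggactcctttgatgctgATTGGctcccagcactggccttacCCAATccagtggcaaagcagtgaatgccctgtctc
The Y box nearest to the start began 53 bases upstream in B2m, 48 in H2-Aa and 35 in H2-Eb1, whereas in Tap1 it was 222 bases away. H2-K1 had 2 starts in the table. From the start shown, which matches the GENCODE end of the gene, its Y boxes began 16 bases upstream and 8 bases downstream, and from the other start 30 and 6 bases upstream. The RefSeq start of H2-D1 lies inside its GENCODE span, so that its window, with Y boxes 76 and 53 bases before that start, covers annotated UTR and is not shown. Over 227 aligned bases the H2-K1 and H2-D1 windows were 90.7% identical.

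Barcodes were kept when they had 500 or more genes and mitochondrial transcripts made up no more than 10% of their unique molecular identifiers (UMIs, 1 per captured transcript). This left 516 QSC barcodes with 1162091 UMIs and 1468 ASC barcodes with 8895815 UMIs, with medians of 2155 and 3502 UMIs. Only 2 kept barcode sequences occurred in both libraries. The sort did not yield satellite cells alone. At least 5% of UMIs came from 10 contractile genes of muscle fibres in 20.2% of QSC and 64.4% of ASC barcodes, called contractile-high here, with 38 ASC barcodes and 0 QSC barcodes between 4% and 6%. Clustering without any MHC or antigen presentation gene gave 13 clusters. A quiescent-like cluster (237 QSC barcodes) had Myf5 among its 10 leading genes and UMIs of Pax7, the defining satellite cell gene, in 78 of these barcodes. Markers of other types named a macrophage/monocyte-like cluster (16 QSC and 85 ASC barcodes, all 11 of its markers detected), a neutrophil-like cluster (24 ASC), a fibroblast-like cluster (17 QSC and 1 ASC) and an endothelial-like cluster (11 QSC and 5 ASC). Muscle barcodes below means all outside these 4 clusters. No doublets were removed.

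Class I was present in both libraries at nearly the same summed level, but its 3 genes did not move together. H2-K1, H2-D1 and B2m together gave 1003 UMIs per 1000000 UMIs of the library (CPM) in QSC, with an exact Poisson 95% interval of 946 to 1062, and 948 CPM (928 to 968) in ASC. The log2 ratio of ASC over QSC was -0.08 (exact conditional binomial 95% interval -0.17 to 0.01). These intervals, like all below, cover counting error only.

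B2m was higher in ASC. It had 363 UMIs (312 CPM) in QSC and 4471 UMIs (503 CPM) in ASC, a log2 ratio of 0.69 (0.53 to 0.84). H2-D1 went the other way, with 636 UMIs (547 CPM) in QSC and 2870 UMIs (323 CPM) in ASC, a log2 ratio of -0.76 (-0.89 to -0.64). H2-K1 had 166 UMIs (143 CPM) and 1092 UMIs (123 CPM), and the interval of its log2 ratio of -0.22 included 0 (-0.46 to 0.03). The light chain and 1 heavy chain thus differed in opposite directions between the same libraries. The median gene with at least 20 UMIs in each library had a log2 ratio of -0.24, and TMM or DESeq2 scaling would raise every ratio by 0.31 or 0.32, which turns H2-K1 to 0.09 and 0.10 and leaves H2-D1 negative.

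Tap1 was rare in both libraries. It had 4 UMIs in 4 QSC barcodes (3.44 CPM) and 100 UMIs in 73 ASC barcodes (11.2 CPM), a log2 ratio of 1.71 (0.31 to 3.61). Of those ASC UMIs, 41 lay in the macrophage/monocyte-like cluster and 54 in contractile-low muscle barcodes. Within contractile-low muscle barcodes the interval of its log2 ratio of 1.11 included 0 (-0.33 to 3.04).

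All 4 class II genes were lower in ASC, and their sum was 4.57-fold lower, at 1147 CPM (1086 to 1210) in QSC and 251 CPM (240 to 261) in ASC. Cd74 had 773 UMIs (665 CPM) in QSC and 1174 UMIs (132 CPM) in ASC, a log2 ratio of -2.33 (-2.47 to -2.20). For H2-Aa the values were 174 UMIs (150 CPM) and 397 UMIs (44.6 CPM), with a log2 ratio of -1.75. H2-Ab1 gave 203 UMIs (175 CPM) and 418 UMIs (47.0 CPM), or -1.89 as log2 ratio. H2-Eb1 had the lowest log2 ratio of the 8 genes, -2.53, from 183 UMIs (157 CPM) in QSC and 242 UMIs (27.2 CPM) in ASC. The 4 genes therefore lay between 3.36-fold and 5.79-fold lower in the ASC library, with no interval reaching 0.

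**Figure D1:**
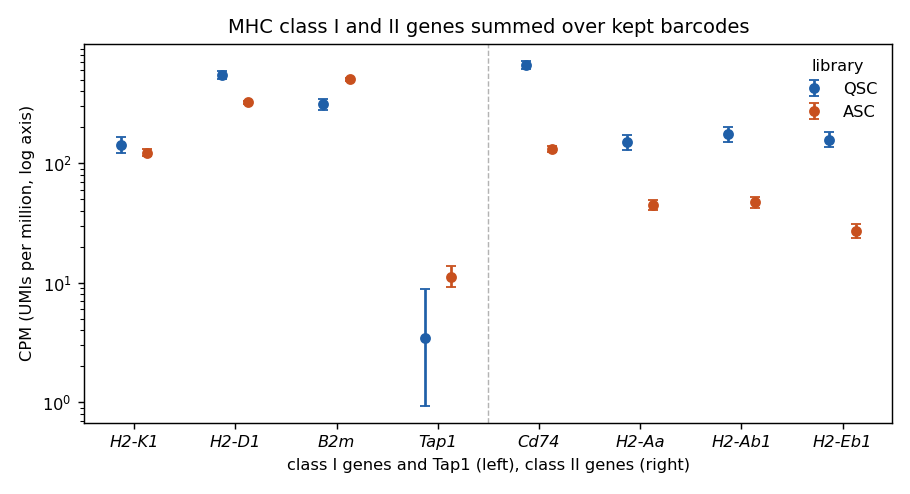
Summed CPM (log axis) of the 8 genes in the QSC library (blue) and the ASC library (orange), with exact Poisson 95% intervals that cover counting error only. B2m and Tap1 are higher in ASC, H2-D1 and all 4 class II genes are higher in QSC, and the H2-K1 intervals overlap.

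Counted by a 2-fold limit, Tap1 was the 1 gene of 8 at least 2-fold higher in ASC, where 17.4% of the 11189 genes with at least 20 UMIs over both libraries were. The 4 class II genes were at least 2-fold lower, where 23% of genes were. The other 3 lay between these limits. In contractile-low muscle barcodes the same counts were 1 higher and 4 lower of 8, against 19.6% and 22.4% of 9961 genes.

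Class II RNA was held by very few barcodes in each library. In QSC, 1216 of 1333 class II UMIs (91.2%, exact Clopper-Pearson interval 89.6 to 92.7) lay in the 16 macrophage/monocyte-like barcodes, which were 3.10% of all kept barcodes. In ASC, 2084 of 2231 (93.4%, 92.3 to 94.4) lay in the 109 macrophage/monocyte-like and neutrophil-like barcodes, 7.43% of the total. The 10 barcodes with the most class II UMIs held 86.2% of them in QSC and 88.6% in ASC. The single highest barcode held 408 UMIs (30.6%) in QSC and 605 UMIs (27.1%) in ASC. Without that barcode in each library the log2 ratio of the class II sum was -2.12 against -2.19 with it.

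The 4 class II genes occurred together. Barcodes with UMIs of all 4 numbered 12 in QSC and 9 in ASC, all in the macrophage/monocyte-like cluster, and held 89.9% and 87.3% of the class II UMIs of their libraries. The highest QSC barcode had 234 Cd74, 50 H2-Aa, 72 H2-Ab1 and 52 H2-Eb1 UMIs among 3711 in all. The highest ASC barcode had 281, 118, 130 and 76 UMIs of the same genes among 15785. Class II took 10.99% of all UMIs in the QSC barcode and 3.83% in the ASC barcode.

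Within the macrophage/monocyte-like cluster, the class II sum was 9.86-fold lower in ASC, at 37220 CPM (35157 to 39372) in QSC and 3776 CPM (3615 to 3943) in ASC. Without the highest barcode of each library it was 10.2-fold lower. In the barcodes with all 4 genes the sum was 45595 CPM (43050 to 48250) in 12 QSC and 23403 CPM (22375 to 24466) in 9 ASC barcodes. In the others it was 2667 CPM (1554 to 4270) in 4 QSC and 242 CPM (200 to 292) in 76 ASC barcodes. The fold over the cluster thus also depends on its mix of barcodes. This split was made by class II UMIs and carries no test. The share of class II among the UMIs of a barcode ran from 0 to 13.6% with a median of 1.90% in the 16 QSC barcodes. It ran from 0 to 7.06% with a median of 0% in the 85 ASC barcodes, of which 48 had no class II UMI. The ranges overlapped, and the QSC barcodes were shallower, with a median of 2025 UMIs against 6382. Thinned to 1200 UMIs, 10 of 12 QSC barcodes (83.3%, 51.6 to 97.9) and 21 of 83 ASC barcodes (25.3%, 16.4 to 36.0) had a class II UMI, with 4 and 2 shallower barcodes left out. This comparison depends on the mitochondrial limit. None of the 16 QSC barcodes and 13 of the 85 ASC barcodes were at or under 1%, the limit that the study used, and at that limit the class II sum over all barcodes turned to 2.67 (log2), with 9 class II UMIs left in QSC.

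The class II barcodes of the libraries also differed in other genes. C1qa, C1qb and C1qc, subunits of complement component C1q made by tissue macrophages, had UMIs in all 16 QSC barcodes of the cluster (12335 CPM) and in 18 of the 85 ASC barcodes (433 CPM). None of the 9 ASC barcodes with all 4 class II genes had a C1q UMI, at a floor of 3 counts in their 83194 UMIs, or 36.1 CPM. Lyz2, the lysozyme gene of myeloid cells, stood at 2693 CPM in these 9 barcodes and at 12582 CPM in the other 76 ASC barcodes of the cluster. Their Coro1a level, a gene of leukocyte actin, was 1947 CPM against 1188 CPM. The monocyte genes Plac8 and Ly6c2 had UMIs in all 9 barcodes, and no UMI in the 16 QSC barcodes. Both were lower in the 9 than in the other 76 ASC barcodes of the cluster. Plac8 stood at 2921 CPM against 3541 CPM, and Ly6c2 at 1454 CPM against 3523 CPM. The sum of the macrophage/monocyte markers was also lower in the 9, at 8234 CPM against 22094 CPM.

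Some class II pathway genes were higher in these 9 ASC barcodes than in the other 76, and some were not. H2-DMb1, a chain of the chaperone that loads peptide, had 85 UMIs (1022 CPM) in the 9 barcodes and 21 UMIs (45.4 CPM) in the other 76. H2-DMa, its partner chain, stood at 757 CPM (582 to 969) and 184 CPM (147 to 227). Ctss, the protease that trims the invariant chain, was lower in the 9, at 1082 CPM (870 to 1330) against 1532 CPM (1421 to 1649), and the intervals of the costimulatory gene Cd86 overlapped. Ciita, the master activator of class II transcription, had 11 UMIs in 6 of the 9 barcodes and 1 UMI in the rest. Cd209a, a dendritic cell marker, had 25 UMIs in 3 of the 9 and 2 in the rest, and Batf3, another, had 10 UMIs in 2 of the 9 and 2 in the rest. The list of 9 dendritic markers summed to 481 CPM (343 to 655) and 41.1 CPM (24.8 to 64.2), with Clec9a at 0 in both. Xcr1, Zbtb46 and Ccr7 were at 0 in the 9. Most of the 40 UMIs behind the first sum were Cd209a and Batf3, with up to 16 and 7 UMIs in a single barcode. The 7 B cell markers summed to 156 CPM (83.2 to 267) and 49.8 CPM (31.6 to 74.7), with the defining genes Cd79a and Ms4a1 at 0 in both. The 9 barcodes were chosen by their class II UMIs, so these values describe them and carry no test.

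**Figure D2:**
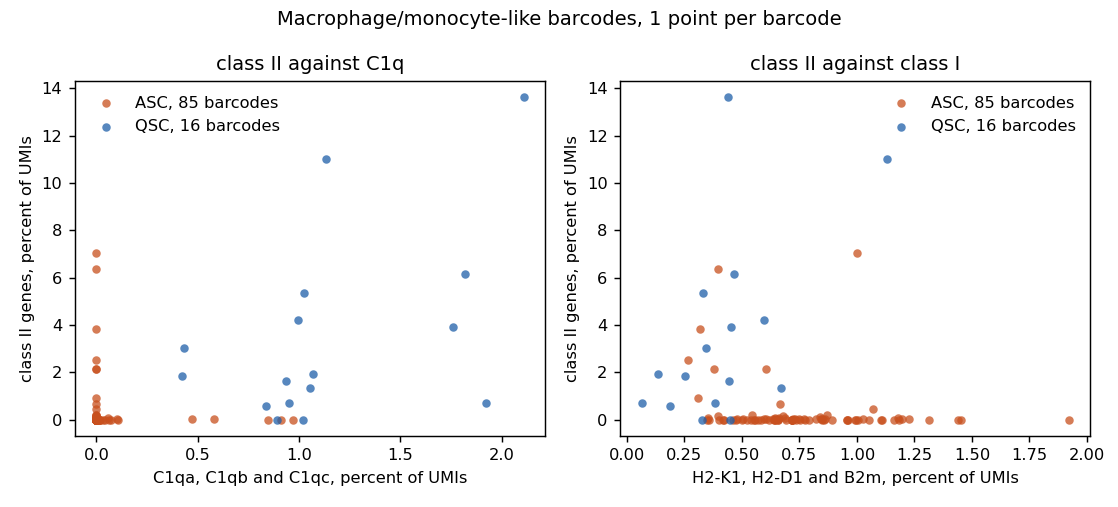
Each point is 1 barcode of the macrophage/monocyte-like cluster, 16 from QSC (blue) and 85 from ASC (orange). The vertical axes give the class II genes as a percent of the UMIs of the barcode, and the horizontal axes give C1qa, C1qb and C1qc (left) and the class I genes (right) as a percent. The ASC barcodes that are high in class II lie at 0 on the C1q axis, and all QSC barcodes lie above 0.

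Outside the immune clusters class II was at the level of scattered single UMIs. No such barcode had more than 3 class II UMIs. In contractile-low muscle barcodes the sum was 121 CPM (98.4 to 147) in 368 QSC barcodes and 16.5 CPM (13.2 to 20.3) in 414 ASC barcodes. In contractile-high barcodes, which should lack class II, it was 51.3 CPM (25.6 to 91.8) and 20.02 CPM (15.3 to 25.8). Thinned to 1200 UMIs, 15.03% (11.5 to 19.1) of contractile-low and 3.33% (0.693 to 9.43) of contractile-high QSC barcodes had a class II UMI, at median depths of 2225 and 1831 UMIs. In ASC these shares were 2.44% (1.18 to 4.45) and 2.70% (1.72 to 4.02), at 8712 and 2892 UMIs, so the contractile-low share of ASC was not above that background. The QSC contractile-high share rests on 3 of 90 barcodes, and thinned to 800 UMIs the QSC shares were 10.9% (7.88 to 14.5) and 7.69% (3.38 to 14.6), with overlapping intervals.

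The ratio of class II to Lyz2 UMIs was compared between muscle barcodes and the macrophage/monocyte-like cluster of the same library, and the intervals of cluster and contractile-low muscle overlapped in both libraries. In QSC there were 4.39 class II UMIs per Lyz2 UMI in the cluster (3.85 to 5.02), 5.10 (3.14 to 8.70) in contractile-low and 1.57 (0.556 to 4.78) in contractile-high muscle barcodes. In ASC the ratio was 0.341 (0.324 to 0.359) in the cluster, 0.277 (0.216 to 0.352) in contractile-low and 0.293 (0.216 to 0.392) in contractile-high muscle barcodes. Per C1q UMI, class II in the cluster and in contractile-low muscle stood at 3.02 (2.69 to 3.39) and 3.29 (2.18 to 5.09) in QSC. In ASC it stood at 8.72 (7.62 to 10.03) and 4.35 (2.65 to 7.47), intervals that do not overlap. Within class II, Cd74 took 58.8% (56.0 to 61.6) of UMIs in the QSC cluster and 48.0% (38.0 to 58.2) in contractile-low QSC barcodes. In ASC it took 53.3% (51.1 to 55.5) and 34.5% (24.6 to 45.4), and these intervals do not overlap either. How much of the class II RNA in muscle barcodes was free RNA was not tested.

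Class I, in contrast, was found in all kinds of barcodes, at levels that differed widely between them. The class I sum was highest in the 5 endothelial-like ASC barcodes, at 8995 CPM (7476 to 10733). Next came the macrophage/monocyte-like barcodes of ASC with 7037 CPM (6816 to 7263), the 11 endothelial-like barcodes of QSC with 5519 CPM (4302 to 6973) and the macrophage/monocyte-like barcodes of QSC with 4714 CPM (3999 to 5520). The neutrophil-like cluster had 3761 CPM (3222 to 4366) and the fibroblast-like cluster 1850 CPM (1515 to 2238). Muscle came last, with 957 CPM (878 to 1040) in the quiescent-like cluster of QSC, 940 CPM (875 to 1007) in contractile-low QSC and 766 CPM (742 to 789) in contractile-low ASC. Contractile-high barcodes had 191 CPM (137 to 259) in QSC and 81.4 CPM (71.5 to 92.3) in ASC. Neighbours whose intervals overlap were the ASC macrophage/monocyte-like and QSC endothelial-like barcodes, the endothelial-like and macrophage/monocyte-like barcodes of QSC, the latter and the neutrophil-like barcodes, and the quiescent-like and contractile-low QSC barcodes, of which the first are a part.

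**Figure D3:**
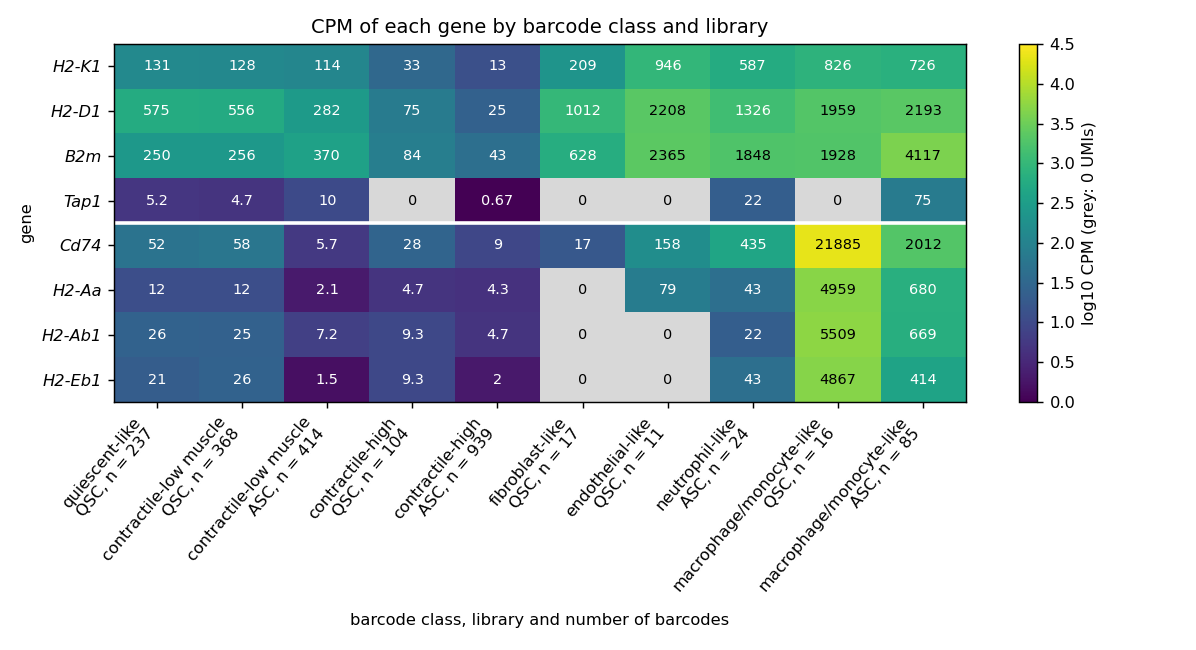
CPM of each gene (rows) in each barcode class and library (columns, with the number of barcodes), coloured by log10 CPM, with grey for 0 UMIs. The class II rows are bright only in the macrophage/monocyte-like columns, and the class I rows fall from the immune and endothelial-like columns to the contractile-high columns.

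The immune share of class I therefore differed between the libraries. Immune-named barcodes held 13.2% (11.3 to 15.3) of the class I UMIs of QSC and 47.6% (46.5 to 48.6) of those of ASC. Without the non-muscle clusters the log2 ratio of the class I sum was -0.61 (-0.71 to -0.50), and within contractile-low muscle barcodes it was -0.30 (-0.41 to -0.18).

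In contractile-low muscle barcodes the 3 class I genes kept the pattern of the whole libraries. B2m had 256 CPM (223 to 292) in QSC and 370 CPM (354 to 387) in ASC, a log2 ratio of 0.53 (0.33 to 0.74). H2-D1 had 556 CPM (507 to 609) and 282 CPM (267 to 296), a log2 ratio of -0.98 (-1.13 to -0.83). H2-K1 had 128 CPM (105 to 154) and 114 CPM (105 to 124), a log2 ratio of -0.16 (-0.46 to 0.15). Over all kept barcodes without a UMI of 5 pan-leukocyte genes, the B2m log2 ratio was 0.0017 (-0.19 to 0.20) and that of H2-D1 was -1.52 (-1.68 to -1.36). Without the non-muscle clusters the B2m log2 ratio was 0.19 (-0.0070 to 0.39). The higher B2m level in ASC thus did not exceed counting error in either set. Both sets include contractile-high barcodes, which were low in B2m and made up 20.2% of all kept QSC and 64.4% of all kept ASC barcodes. The leukocyte filter left 272 of 363 B2m UMIs in QSC and 1147 of 4471 in ASC. What part these differences play was not tested. In contractile-high barcodes all 3 were lower in ASC, and B2m, with 18 UMIs in QSC, stood at -0.95 (-1.67 to -0.15).

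Per barcode, class I UMIs were found in most contractile-low muscle barcodes, a class set only by what it leaves out. In contractile-low muscle barcodes the median was 7.98 class I UMIs per 10000 UMIs in QSC (range 0 to 49.98, 59 of 368 at 0) and 7.72 in ASC (range 0 to 64.2, 25 of 414 at 0). In contractile-high barcodes 82 of 104 QSC and 757 of 939 ASC barcodes had no class I UMI. The ranges of the libraries overlapped in both classes. Thinned to 1200 UMIs, 66.7% (61.6 to 71.5) of QSC and 61.1% (56.2 to 65.9) of ASC contractile-low barcodes had a class I UMI, against 16.7% (9.64 to 26.0) and 8.80% (6.99 to 10.9) of contractile-high barcodes.

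The ASC muscle barcodes were not uniform. Cluster 1 (243 ASC barcodes) took no cell type name. Its 10 leading genes were Bgn, C1qtnf3, Acta2, Tagln, Hist1h2ap, Tubb2b, Ifit1, Cxcl10, Sox4 and Loxl1. Of these, Acta2 is a listed marker of mural cells, Hist1h2ap is one of proliferating cells, and Ifit1 and Cxcl10 are interferon-induced. Whether all its barcodes are muscle was not tested. Cluster 1 had a class I sum of 1205 CPM (1155 to 1256), with B2m at 590 CPM (556 to 626) and Tap1 at 17.8 CPM (12.3 to 25.01). Cluster 4 (149 ASC barcodes), led by the cell cycle genes Rrm2 and Pclaf, had 495 CPM (469 to 522), with B2m at 220 CPM (203 to 239) and Tap1 at 4.74 CPM (2.52 to 8.10). Cluster 9 (46 ASC barcodes), led by the differentiation genes Cdkn1c, Myog and Mymk, had 479 CPM (426 to 538). The class I sum of cluster 1 was thus more than that of the other 2 clusters beyond counting error, while clusters 4 and 9 did not differ beyond it. Contractile-high barcodes, which are low in class I, made up 47 of 149 in cluster 4, 9 of 243 in cluster 1 and 1 of 46 in cluster 9, and their part in this difference was not tested. Clusters 0, 5 and 6, which were mostly contractile-high, had 51.0 to 71.3 CPM in ASC. These values came from 95, 36 and 16 class I UMIs in 364, 197 and 106 ASC barcodes. Cluster 3 is not part of them, though 221 of its 244 barcodes were contractile-high. It had 178 class I UMIs in 236 ASC barcodes, so the mostly contractile-high clusters were not alike in class I UMIs. All 939 contractile-high ASC muscle barcodes together held 244 class I UMIs. Some of the UMIs of these clusters therefore lay in their barcodes that were not contractile-high. The part of such barcodes in the count of cluster 3 was not tested. Members had no part in the clustering, but the clusters were seen before they were compared.

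B2m took a larger part of the class I UMIs in ASC in most kinds of barcodes. Over all kept barcodes its share of H2-K1, H2-D1 and B2m UMIs was 31.2% (28.5 to 33.9) in QSC and 53.0% (51.9 to 54.1) in ASC. In contractile-low muscle it was 27.2% (24.1 to 30.4) and 48.3% (46.8 to 49.9). In the macrophage/monocyte-like cluster it was 40.9% (33.1 to 49.1) and 58.5% (56.9 to 60.1). These 3 pairs of intervals do not overlap. The endothelial-like cluster had 42.9% (31.1 to 55.3) and 43.1% (34.2 to 52.3), and contractile-high barcodes 43.9% (28.5 to 60.3) and 53.3% (46.8 to 59.7), pairs that do overlap. In the 46 ASC barcodes of cluster 9 the share was 62.4% (56.6 to 68.0), and in cluster 1 it was 15 of 60 UMIs in QSC and 49.0% (46.9 to 51.1) in ASC. Being a ratio within a library, this share does not depend on the scaling of the libraries.

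**Figure D4:**
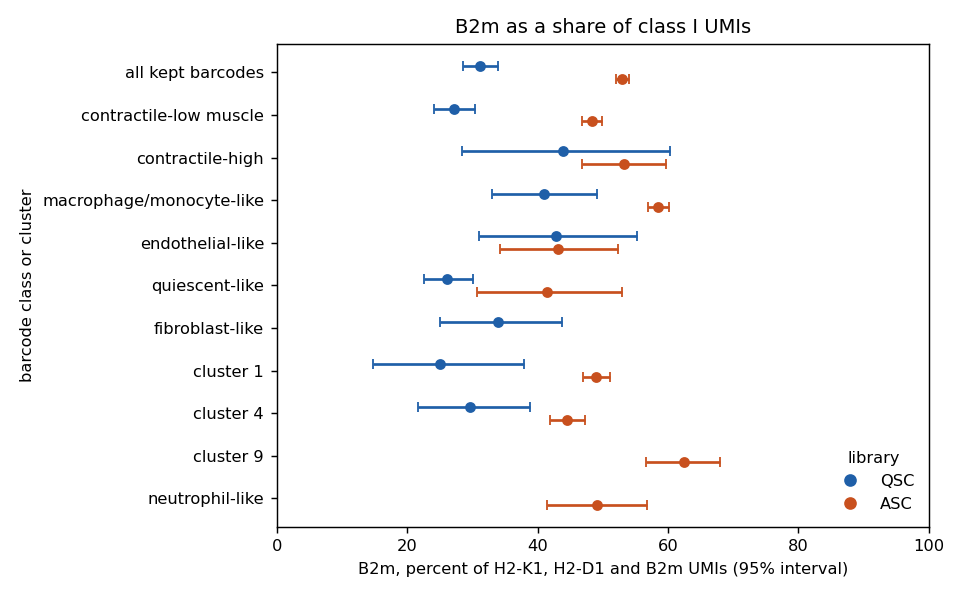
B2m as a percent of the class I UMIs (H2-K1, H2-D1 and B2m) in each barcode class or cluster of QSC (blue) and ASC (orange), with exact Clopper-Pearson 95% intervals. The ASC interval lies above the QSC interval over all kept barcodes, in contractile-low muscle, in the macrophage/monocyte-like cluster and in the quiescent-like cluster and clusters 1 and 4, and overlaps it in the contractile-high and endothelial-like barcodes.

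Other genes of the class I pathway lay on both sides. Of 25 listed genes, 22 had at least 20 UMIs, with a median log2 ratio of -0.79 against -0.24 for the median gene. The interval lay below 0 for 11 of them and above 0 for 5. The share of all genes with such intervals was not worked out, so these counts only describe the list. By the 2-fold limit 2 were higher and 9 lower, where 17.4% and 23% of all genes were. The 2 genes at least 2-fold higher were Psmb8 (25 and 441 UMIs, log2 ratio 1.20) and Psmb9 (8 and 126 UMIs, 1.04), subunits of the immunoproteasome, the protease form that interferon induces. Psmb10, the gene of the third such subunit, stood at 0.95 (0.51 to 1.44). The 9 genes at least 2-fold lower were the non-classical class I genes H2-Q4, H2-T23, H2-M3 and Cd1d1, the relatives Fcgrt and Hfe, and Tapbpl, Erap1 and Pdia3, which edit or load peptide. H2-Q4 had 92.1 CPM in QSC and 35.6 CPM in ASC, and Fcgrt, the neonatal Fc receptor, had 187 and 23.9 CPM. Tap2, the partner of Tap1 in the transporter, had a log2 ratio of -0.90 (-1.46 to -0.31), opposite in sign to that of Tap1.

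Within contractile-low muscle barcodes 19 of the 25 genes had at least 20 UMIs, with a median of -0.49 against -0.26 for the median gene. Psmb10 (1.56, 0.90 to 2.31) and Psmb9 (1.50, -0.13 to 3.82) were at least 2-fold higher there, and 7 genes at least 2-fold lower, against 19.6% and 22.4% of all genes. Psmb8, with 13 and 139 UMIs, stayed under the 2-fold limit there, at 0.77 (-0.05 to 1.72). Nlrc5, an activator of class I transcription, had 4 UMIs in ASC and 0 in QSC over all kept barcodes, too few for a ratio.

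Over all kept barcodes, other class II pathway genes did not pass the 2-fold limit in the direction of the 4 class II genes. Of 15 listed genes, 8 had at least 20 UMIs, with a median log2 ratio of 0.38. By the 2-fold limit 2 were higher and none lower, where 17.4% and 23% of all genes were. Ctss (1.35, 0.91 to 1.82) and Ifi30, a lysosomal reductase (1.21, 0.53 to 1.98), were at least 2-fold higher. H2-DMa stood at -0.54 (-1.07 to 0.02) and H2-DMb1 at 0.44 (-0.46 to 1.48). Within the macrophage/monocyte-like cluster, H2-DMa was lower in ASC, at 271 CPM (229 to 319) against 796 CPM (520 to 1166) in QSC, and the intervals of H2-DMb1 overlapped, at 194 CPM (159 to 235) and 306 CPM (147 to 563). The intervals of Ctss also overlapped within the cluster, at 1463 CPM (1364 to 1569) in ASC and 1316 CPM (953 to 1773) in QSC. So did those of Ifi30, at 409 CPM (357 to 466) in ASC and 306 CPM (147 to 563) in QSC. Ciita had 12 UMIs, all in ASC and all in the macrophage/monocyte-like cluster.

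The interferon-gamma list gave values on both sides. Of 16 genes, 15 had at least 20 UMIs, with a median log2 ratio of -0.59. By the 2-fold limit 2 were higher and 6 lower, where 17.4% and 23% of all genes were. The receptor chain gene Ifngr1 (-1.58), the kinase gene Jak1 (-1.17), the transcription factor genes Irf1 (-2.79) and Irf2 (-1.40), and the induced GTPase genes Gbp2 (-1.22) and Irgm1 (-2.81) were at least 2-fold lower in ASC. Gbp3 (2 and 74 UMIs, 2.27, 0.37 to 5.35) and Igtp (4 and 62 UMIs, 1.02, -0.41 to 2.94) were at least 2-fold higher, on few QSC UMIs. Irf1 had 110 CPM in QSC and 16.0 CPM in ASC. Ifng itself had 19 UMIs, all in ASC, none of them in contractile-low muscle barcodes. In those barcodes Gbp3 (2 and 61 UMIs, 2.29, 0.37 to 5.36), Gbp7 (2 and 60 UMIs, 2.26, 0.35 to 5.34) and Igtp (2 and 45 UMIs, 1.85, -0.09 to 4.94) were among the 4 of 14 genes at least 2-fold higher, and 6 were at least 2-fold lower, against 19.6% and 22.4% of all genes.

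**Figure D5:**
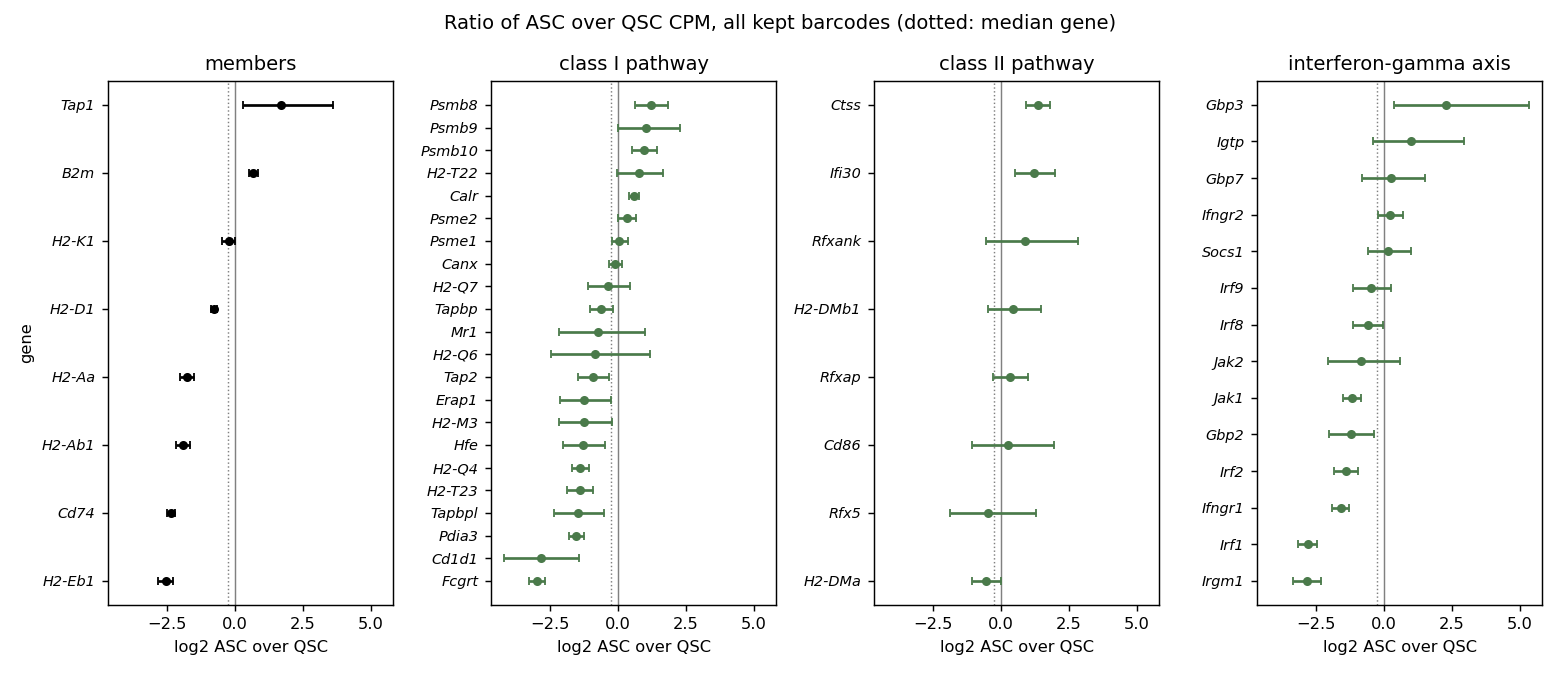
Log2 ratio of ASC over QSC CPM over all kept barcodes for the 8 genes (black) and the 3 lists (green), for the genes shown, which have at least 20 UMIs, with exact conditional binomial 95% intervals. The solid line marks 0 and the dotted line the median gene at -0.24. The 4 class II genes are the lowest of the 8, and no class II pathway gene is at or below -1, where 23% of all genes are.

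Across 18 cluster and library units with at least 10 barcodes, the genes with the pattern most like that of B2m, by Pearson's correlation of log2(CPM + 10) among 6956 genes, were Shisa5 (0.96), Tmsb4x (0.95), Cmtm7 (0.93), Tapbp (0.93) and Psap (0.92). H2-K1 and H2-D1 reached 0.98 and 0.94 with B2m, and Tap1 0.50. For Cd74 the leading genes were Cd83 (0.94), Fcgr3 (0.92), Cybb (0.91), Ptpn18 (0.90) and Hcls1 (0.89), and H2-Aa, H2-Eb1 and H2-Ab1 reached 0.96, 0.91 and 0.90. These units share libraries and differ in depth, so the values are a description.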

How the data were processed

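Single-cell 3' libraries of sorted satellite cells, 1 per group, were analysed. The deposited values are UMI counts per gene and barcode. Per the file headers the authors made them with Cell Ranger 6.0.2, whereas the submitters' processing notes and the methods name Cell Ranger 7.1.0, with mm10. The notes also name Seurat 4.1.0 and R 4.1.2. These releases may treat intronic reads differently, and how they were counted is not given in the sources used here. Of 32285 gene identifiers, 32235 (99.8%) matched GENCODE M21.

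Barcodes with at least 500 genes and at most 10% UMIs from 13 mitochondrial genes were kept. The limit of 1% that the study used kept 86 of 520 QSC and 948 of 1487 ASC barcodes with 500 genes, and was an alternative. Counts were summed per library or class and scaled to CPM. Intervals at 95% were exact Poisson for CPM, conditional binomial for ratios, and Clopper-Pearson for shares; they cover counting error only. A count of 0 has a floor of 3 counts, or 2.58 CPM in QSC and 0.337 CPM in ASC. The interval calculation was tested on simulated data. Shares of barcodes used thinning to 1200 UMIs. Clustering followed the methods in Seurat 5.3.0 (R 4.3.3) with 1064 variable genes, 10 components and resolution 0.6, after 20 antigen presentation and interferon genes were left out of the variable genes. Clusters took the name of the type whose marker list led their 10 top genes by fold, if 3 or more of its markers were detected, and ties stayed unnamed. Scaling alternatives used edgeR 4.0.16 and DESeq2 1.42.0 on the counts. Python 3.11.15 was used, with promoter alignment in Biopython 1.88. Named genes were the 8 genes, the 3 lists and the markers, besides cluster-leading genes and the likeness ranking. The genes, lists and markers were chosen with earlier results of these data known. Values of 2 genes of the lists and markers are not reported here, though the counts and sums of their lists include them. With 1 library per group no test was possible.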

Additional observations from a re-analysis of the deposited data

Results flagged for a closer look

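Effects of opposite direction in different kinds of barcodes were found 4 times, each without a test of the difference. B2m had a log2 ratio of ASC over QSC of 0.53 in contractile-low muscle barcodes and 1.09 in the macrophage/monocyte-like cluster, but -0.95 in contractile-high barcodes. The class I sum had a log2 ratio of 0.58 in the macrophage/monocyte-like cluster, where B2m was higher in ASC and the intervals of H2-K1 and H2-D1 included 0, but -0.30 in contractile-low muscle barcodes and -1.23 in contractile-high barcodes. The contractile-high values rest on 41 class I UMIs in QSC, and each kind of barcode comes from 1 library per group, so these differences were not tested.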

How the results depend on the processing

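All values here are log2 ratios of ASC over QSC unless said otherwise. The class I sum (-0.08) was near 0 and changed sign with the barcodes kept: 1.37 at a mitochondrial limit of 1% (24 QSC UMIs), 0.046 in all deposited barcodes, 0.21 in contractile-low and -0.71 in contractile-high barcodes of any type, -0.61 without the non-muscle clusters, -0.79 without barcodes with a pan-leukocyte UMI, -0.30 in contractile-low barcodes outside those clusters, and 0.17 without the 5% deepest barcodes. It was 0.23 with TMM scaling, 0.24 with DESeq2 size factors and -0.22 with equal weight per barcode.

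The class II sum (-2.19) stayed below 0 in all but 1 alternative. In contractile-high barcodes of any type the sum rested on 11 QSC UMIs, and its interval (-1.58 to 0.37) included 0. It was -2.57 at a 5% mitochondrial limit, -2.07 in all deposited barcodes, -1.94 and -0.68 in contractile-low and contractile-high barcodes of any type, -2.59 without the non-muscle clusters, -2.45 without barcodes with a pan-leukocyte UMI, -2.87 in contractile-low barcodes outside those clusters, -1.87 without the 5% deepest, -1.88 with TMM, -1.87 with DESeq2 size factors and -2.46 with equal weight. At the 1% limit it turned to 2.67 on 9 QSC UMIs, and Cd74 (3.22), H2-Aa (3.51), H2-Ab1 (2.42), H2-Eb1 (1.28) and H2-D1 (1.01) turned with it. In contractile-high barcodes of any type, immune-named ones included, B2m turned to -0.39 and H2-Aa to 0.090.

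The share of barcodes with a class I UMI (59.0% of QSC and 31.7% of ASC at 1200 UMIs) was 46.3% and 24.9% at 800 UMIs, 75.1% and 43.2% at 2000, and 72.3% and 46.7% with no thinning. The class II share (14.3% and 4.52%) was 20.6% in QSC at 2000 UMIs, 2.73% in ASC at 800, and 23.1% and 12.3% with no thinning. With no filter on low counts, 3167 genes were at least 2-fold higher and 3925 lower, against 1952 and 2574. The immune share of class II was the same at cluster resolutions 0.3 and 1.0. No paired analysis was possible because each group is 1 library.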
